A study of Mus musculus with 24 samples.

Results

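The genes described here are 42 antioxidant and glutathione genes, listed by symbol without use of any measured value: superoxide dismutases and catalase, glutathione peroxidases, peroxiredoxins, the thioredoxin system, glutathione synthesis and reduction, glutaredoxins, the Nrf2 pathway, glutathione transferases and methionine sulfoxide reductases. They are 42 of the 55254 genes in the count tables, and each symbol was found in all 24 libraries. Although no value entered the list, earlier results of these data were known when it was drawn up. Nuclear RNA came from the hippocampus of male C57BL/6N mice aged 6 months that were wild type (WT), Mutyh-/-, Ogg1-/- or deficient in both genes (DKO, bred by crossing the single knockouts). Mutyh and Ogg1 are DNA glycosylases, enzymes that remove damaged bases, and both act on lesions that come from oxidized guanine. The study asked whether their loss alters gene expression in neurons and in other cells, and nuclei were therefore sorted with an antibody against NeuN, a neuronal nuclear protein, into NeuN+ and NeuN- fractions. Each genotype had 3 replicates per fraction, which gave 8 groups. Nuclei were pooled from several animals, and since it is unclear whether a replicate was an animal, a pool or a share of a pool, the p-values below measure the spread between these samples, which may be technical.

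Superoxide dismutases turn superoxide into hydrogen peroxide, which catalase, glutathione peroxidases and peroxiredoxins then remove. Peroxiredoxins are recharged by thioredoxin and thioredoxin reductase, and glutathione peroxidases and glutaredoxins by glutathione, whose synthesis depends on cystine uptake and on glutamate-cysteine ligase. Nrf2, encoded by Nfe2l2, is the transcription factor that switches on many of these genes once it escapes its inhibitor Keap1, and in the brain this programme is best known from glia, above all astrocytes.

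Nrf2 with a small Maf partner binds the antioxidant response element, whose core is written TGACNNNGC. The promoter windows of the RefSeq set (GRCm38.p6, from 250 bases before to 50 bases after a start site) covered 35 of the 42 genes, not Gsr, Sod3, Gclc, Prdx6, Gsta4, Hmox1 and Msra. The core was present on either strand in windows of 9 of the 35 genes (25.7%), beside 3781 of all 27025 genes with a window (14%). A match is a description of these letters and not evidence of binding. The genes were Sod1, Prdx1, Txnrd1, Srxn1, Gclm, G6pdx, Nfe2l2, Gstm5 and Msrb2. The stretches around the match are shown for 5 genes whose match lay outside annotated exons of the gene itself, since their values recur below, with the core in capitals and in the direction of transcription:
Sod1 (chr16:90220695-90220725, plus strand, 56 bases before the start site, intergenic): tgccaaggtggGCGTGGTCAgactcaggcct
Prdx1 (chr4:116685455-116685485, plus strand, 133 bases before, intergenic): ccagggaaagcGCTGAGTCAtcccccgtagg
Gclm (chr3:122245412-122245442, plus strand, 134 bases before, intergenic): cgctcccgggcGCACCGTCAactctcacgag
Txnrd1 (chr10:82859103-82859133, plus strand, 92 bases before a start site inside the gene, in an intron of longer transcripts): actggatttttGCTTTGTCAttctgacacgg
Nfe2l2 (chr2:75704884-75704913, minus strand, 240 bases before, in an exon of E030042O20Rik on the other strand): tcagcccaccTGACTCCGCcatgccccgga

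The libraries held between 56563586 and 96192142 counts, with a median of 70434612. Of the targeted genes, Mutyh was higher in the libraries labelled Mutyh-/- and DKO (log2 fold changes 3.15 and 2.99 in NeuN+, 1.85 and 1.61 in NeuN-), and Ogg1 differed from WT by at most 0.09 in those labelled Ogg1-/- and DKO (0.05 and 0.01 in NeuN+, 0.02 and 0.09 in NeuN-). Counts of whole genes do not show which exons were read, and the direction for Mutyh goes against the label. Genotype names are used as labelled. All 8 neuronal markers were higher in WT NeuN+, and all 6 astrocyte, 5 oligodendrocyte, 3 oligodendrocyte precursor, 5 microglial and 3 endothelial markers were higher in WT NeuN-. Higher here means an edgeR adjusted p under 0.05 and a log2 difference above 1. Of all genes tested, 21.3% met this in NeuN+ and 21.6% in NeuN-. The remaining lists did not separate in full. Of 5 choroid plexus markers, 3 were higher in NeuN- and 0 in NeuN+. Of 3 erythrocyte markers, 2 were higher in NeuN- and 1 in NeuN+. The fractions were not free of each other, since the summed neuronal markers had 470 to 560 CPM (counts scaled to library size) in WT NeuN- against 5977 to 6285 in WT NeuN+, and the summed astrocyte markers 39.0 to 51.6 in WT NeuN+ against 839.7 to 934 in WT NeuN-. Summed erythrocyte markers had more in WT NeuN+, with 65.5 to 71.6 CPM against 30.5 to 35.1 in WT NeuN-. All CPM values below were scaled over all 24 libraries with edgeR's TMM factors.

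In WT, most of the large differences between the fractions lay on the side of NeuN-. With calls at an adjusted p under 0.05 (quasi-likelihood test of edgeR with Benjamini-Hochberg adjustment) and a log2 difference above 1, 4 of the 42 genes were called on the NeuN+ side and 14 on the NeuN- side. Among all 33523 genes tested, 21.3% were called higher in NeuN+ and 21.6% higher in NeuN-. The median log2 difference, NeuN+ minus NeuN-, was -0.33 over the 42 genes and -0.01 over all genes tested. NeuN+ and NeuN- libraries ran on different sequencing lanes, so an effect of lane cannot be told apart from one of cell type. In bulk RNA of this kind, fewer cells of a type cannot be told apart from less RNA per cell. The plot of log2 differences between the fractions shows all genes in order.

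**Figure D1:**
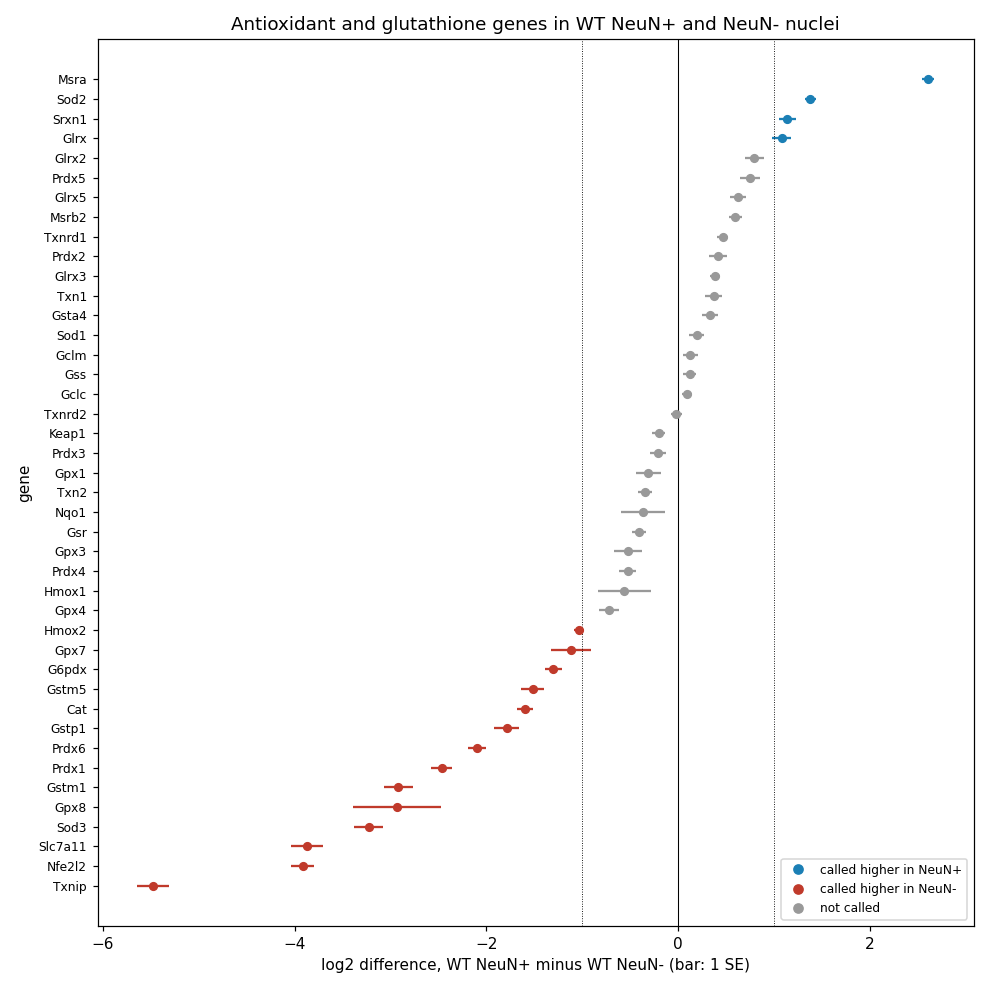
Log2 difference between WT NeuN+ and WT NeuN- nuclei (horizontal axis, bar 1 standard error, dotted lines at -1 and 1) for each of the 42 genes (vertical axis, in order of the difference). Msra lies furthest to the right at 2.61 and Txnip furthest to the left at -5.48, with 14 genes called on the NeuN- side and 4 on the NeuN+ side.

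Txnip, which encodes an inhibitor of thioredoxin, had the largest difference. It had 14.4, 15.0 and 14.4 CPM in the 3 WT NeuN- libraries and 0.276, 0.373 and 0.330 in WT NeuN+, where it rested on 17 to 23 counts. The groups were far apart, with a log2 difference of -5.48 ± 0.16 (SE, edgeR adjusted p = 2.35e-18). Its exons overlap those of the antisense gene Gm15441, and since the strand setting of the counting is not given in the sources used here, reads from these genes cannot be told apart. No other gene of the thioredoxin system was called higher in NeuN-.

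The regulator itself differed in the same direction. Nfe2l2 had 33.6, 34.3 and 34.9 CPM in WT NeuN- and 1.88, 2.77 and 2.16 in WT NeuN+. The log2 difference was -3.91 ± 0.12 (SE, edgeR adjusted p = 3.1e-18). Keap1, which marks Nrf2 for degradation, was by contrast close to even, at 13.9 ± 0.55 CPM in NeuN- and 12.1 ± 0.171 in NeuN+ (SD, n = 3; log2 difference -0.20, adjusted p = 0.012).

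Slc7a11, the cystine transporter that feeds glutathione synthesis, followed with 68.1, 78.1 and 74.3 CPM in WT NeuN- and 6.13, 5.01 and 3.91 in WT NeuN+. Its log2 difference was -3.87 ± 0.16 (SE, edgeR adjusted p = 9.7e-16). The enzymes further down the same route were near even. Both subunits of glutamate-cysteine ligase, Gclc (log2 difference 0.09, adjusted p = 0.113) and Gclm (0.13, adjusted p = 0.149), and glutathione synthase Gss (0.12, adjusted p = 0.109) did not pass the test, while glutathione reductase Gsr passed with a small difference of -0.40. G6pdx, which supplies NADPH for the reduction of glutathione, was called higher in NeuN- at -1.30.

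Sod3, the superoxide dismutase of the extracellular space, had 4.44, 3.61 and 4.35 CPM in WT NeuN- and 0.373, 0.437 and 0.512 in WT NeuN+, where it rested on 23 to 31 counts. Its log2 difference was -3.23 ± 0.15 (SE, edgeR adjusted p = 7.6e-15). Sod2, the mitochondrial enzyme, lay on the other side. It had 121, 120.0 and 127 CPM in WT NeuN+ and 47.2, 47.5 and 47.0 in WT NeuN-, a log2 difference of 1.38 ± 0.06 (SE, edgeR adjusted p = 1.15e-15). The cytosolic Sod1 was nearly even at 0.19, and catalase (Cat) was called higher in NeuN- at -1.60.

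Gpx8, a glutathione peroxidase family member of the endoplasmic reticulum, had 0.531, 0.580 and 0.662 CPM in WT NeuN- and 0.162, 0.0324 and 0.0330 in WT NeuN+, where 2 to 10 counts lay behind each value. Its log2 difference was -2.93 with a standard error of 0.46. The peroxidases as a group leaned to NeuN-, with log2 differences between -2.93 and -0.31 over 5 genes and 2 calls, the other being Gpx7 at -1.12. Among the 6 peroxiredoxins, Prdx1 (-2.47) and Prdx6 (-2.10) were called higher in NeuN-, whereas Prdx5 (0.75) and Prdx2 (0.42) passed the test on the NeuN+ side with differences under 1. Of the 4 glutathione transferases, Gstm1 (-2.92), Gstp1 (-1.79) and Gstm5 (-1.51) were called higher in NeuN-, and Gsta4 differed by 0.33 in the other direction. Gstp1 has a close copy, Gstp2, and the counting could have split or shared their reads.

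On the NeuN+ side, Msra, which repairs oxidized methionine, had 979, 895 and 945 CPM in WT NeuN+ and 149, 153 and 162 in WT NeuN-, a log2 difference of 2.61 ± 0.06 (SE, edgeR adjusted p = 5.99e-20). Srxn1, which restores over-oxidized peroxiredoxins, had 8.40, 9.19 and 7.94 CPM against 3.84, 3.83 and 3.92 (log2 difference 1.14). Glrx, the cytosolic glutaredoxin, had 6.96, 7.05 and 5.73 CPM against 3.05, 3.38 and 2.91 (1.08). In all 3 genes the groups did not overlap. The fifth in order, the mitochondrial glutaredoxin Glrx2, differed by 0.80 and was not called. All 4 glutaredoxins had higher levels in NeuN+, with log2 differences between 0.38 and 1.08. Hmox2, the constitutive heme oxygenase, was called higher in NeuN- at -1.03, while its inducible relative Hmox1 (-0.56, adjusted p = 0.0743) and the quinone reductase Nqo1 (-0.36, adjusted p = 0.157) did not pass.

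Each knockout was then compared with WT within a fraction. Few of the genes passed, and none in NeuN-. At an adjusted p under 0.05 over all genes tested, 1 of 41 genes was called in NeuN+ Mutyh-/- (0.641% of all 30132 genes), 2 in Ogg1-/- (1.1% of all) and 0 in DKO (0.494% of all). Gpx8 had too few counts to be tested in NeuN+. In NeuN-, 0 of 42 genes were called in Mutyh-/- (0.32% of all 31863 genes), Ogg1-/- (0.342%) or DKO (0.179%). Only Prdx5 in NeuN+ Ogg1-/- also exceeded an absolute log2 fold change of 0.5, the study's further condition for a differentially expressed gene. That condition was met by 0.428%, 0.574% and 0.302% of all genes in Mutyh-/-, Ogg1-/- and DKO of NeuN+, and by 0.273%, 0.229% and 0.116% in NeuN-. DESeq2's Wald test on the same genes called 4, 5 and 9 in NeuN+, beside 3.85%, 2.47% and 2.11% of all genes, and 1, 0 and 1 in NeuN-, beside 1.9%, 1.84% and 1.42%. Without a filter on low counts, the quasi-likelihood test called 3, 5 and 6 in NeuN+ (3.05%, 1.43% and 1.2% of all 47583 genes) and 0 in each knockout of NeuN- (0.29%, 0.296% and 0.222% of all 48575 genes).

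Most of the genes had lower estimates in the knockouts of NeuN+. In NeuN+, 30, 31 and 31 of 41 genes were below WT in Mutyh-/-, Ogg1-/- and DKO, beside 51.9%, 47.8% and 50.1% of all genes tested. The median log2 fold changes were -0.14, -0.11 and -0.12, beside -0.01, 0.01 and -0.001 over all genes. At an unadjusted p under 0.05, 14, 12 and 11 genes were lower (9.21%, 7.33% and 7.51% of all genes), and 2 were higher in each knockout (9.48%, 5.01% and 5.98% of all). In NeuN-, 26, 24 and 26 of 42 genes were below WT, with medians of -0.05, -0.01 and -0.04, beside 51.2%, 49.8% and 48.5% of all genes and medians of -0.005, 0.001 and 0.007. There, 2, 4 and 6 genes were lower at an unadjusted p under 0.05 (6.9%, 6.08% and 6.31% of all genes) and 2, 3 and 2 were higher (6.78%, 5.75% and 6.06% of all). In NeuN+, all libraries of the knockout lay below all of WT in 17, 14 and 12 genes and above them in 3, 2 and 2. Groups without overlap, in either direction, made up 21.6%, 20.1% and 17.5% of all genes tested. In NeuN-, the counts were 5, 8 and 7 lower and 2, 4 and 2 higher, beside 19.2%, 19.4% and 16.8% of all. A lack of overlap in a gene named below is to be read beside these shares. The 3 comparisons of a fraction share the same WT libraries, so they are not independent of each other. Of the markers of other cells in NeuN+, none was called by edgeR. In Mutyh-/-, Ogg1-/- and DKO their medians were -0.29, -0.14 and -0.38 over 6 astrocyte markers, -0.26, -0.34 and -0.47 over 3 oligodendrocyte precursor markers and -0.19, 0.01 and -0.43 over 5 oligodendrocyte markers. Medians were -0.02, -0.04 and -0.03 over 4 microglial, -0.10, 0.04 and -0.19 over 2 endothelial, -0.30, -0.55 and -0.39 over 4 choroid plexus and -0.14, 0.04 and -0.65 over 3 erythrocyte markers. The choroid plexus and erythrocyte markers were not all higher in WT NeuN-, so their medians are no clear measure of other cells. For Mutyh-/-, Ogg1-/- and DKO in turn, summed astrocyte markers had 39.9 to 43.6, 35.5 to 54.5 and 32.8 to 45.7 CPM, ranges that overlap that of WT. Summed oligodendrocyte markers had 117 to 135, 119 to 139.5 and 117 to 132 CPM against 119 to 123 in WT. Their part in the values of the antioxidant genes was not tested.

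**Figure D2:**
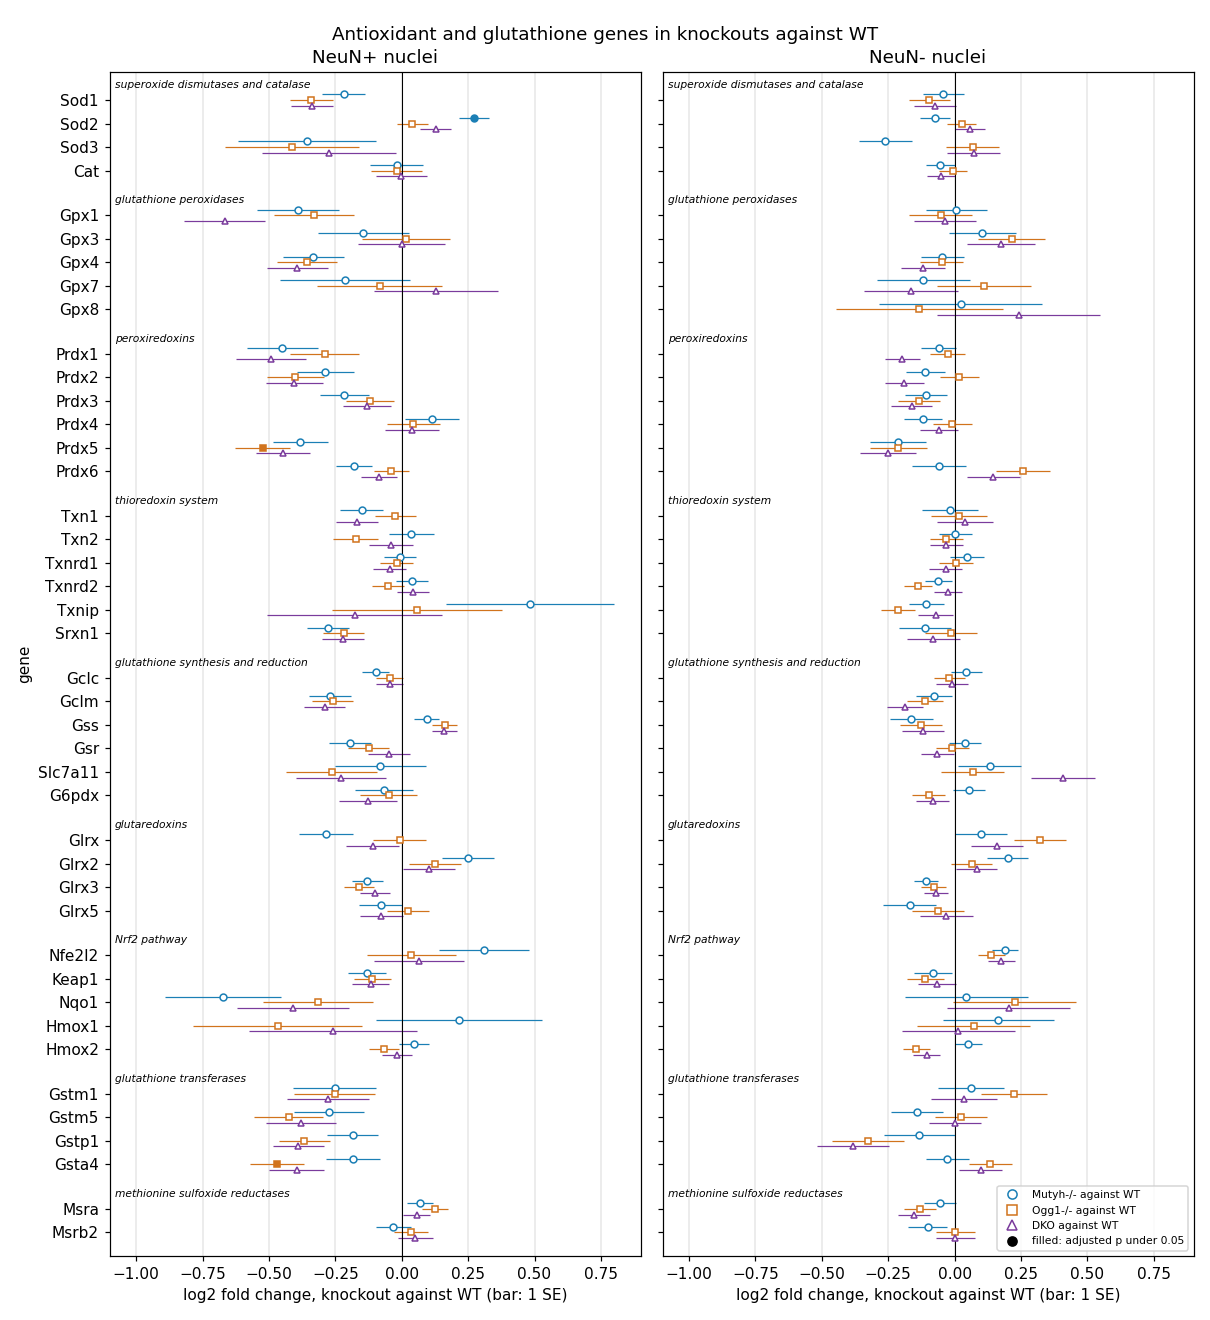
Log2 fold change of each gene against WT (horizontal axis, bar 1 standard error) in NeuN+ (left) and NeuN- nuclei (right), for Mutyh-/-, Ogg1-/- and DKO, with genes grouped by role. The filled symbols mark Sod2 in Mutyh-/- and Prdx5 and Gsta4 in Ogg1-/- of NeuN+, the values with an adjusted p under 0.05.

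Sod2 rose in NeuN+ Mutyh-/-. Its level was 149.8, 155 and 139 CPM in Mutyh-/- against 121, 120.0 and 127 in WT, so that every Mutyh-/- library lay above every WT library. The log2 fold change was 0.27 ± 0.06 (SE, edgeR adjusted p = 0.0464), a ratio of 1.21. In the other knockouts it was 127, 137 and 120.1 CPM in Ogg1-/- (0.04, adjusted p = 0.844) and 132, 142 and 133 in DKO (0.13, adjusted p = 0.351). Without any 1 of the 3 WT libraries, or without Mutyh-/- replicate 1 or 2, the adjusted p was between 0.0619 and 0.194. With 1 library left out, the log2 fold change was between 0.23 and 0.32.

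The cytosolic Sod1 had lower estimates in all 3 knockouts of NeuN+ without being called. It had 14.5, 14.4 and 14.4 CPM in WT, 12.9, 13.1 and 11.2 in Mutyh-/-, 12.3, 11.8 and 10.6 in Ogg1-/- and 12.1, 12.1 and 10.5 in DKO, and no knockout library reached the WT range. The log2 fold changes were -0.22, -0.34 and -0.34, and the SE was 0.08 for each (edgeR adjusted p = 0.17, 0.0581 and 0.0861). Catalase was at -0.02, -0.02 and -0.002, the smallest values of its group. In NeuN-, Sod3 had 3.69, 3.55 and 3.17 CPM in Mutyh-/- against 4.44, 3.61 and 4.35 in WT, groups that overlap, with a log2 fold change of -0.26 ± 0.10 (SE, edgeR adjusted p = 0.284).

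Prdx5, a peroxiredoxin of mitochondria, peroxisomes and cytosol, fell in NeuN+ Ogg1-/-. It had 6.81, 6.37 and 6.03 CPM there against 8.87, 8.93 and 9.46 in WT, a log2 fold change of -0.52 ± 0.10 (SE, edgeR adjusted p = 0.0256). The values in Mutyh-/- were 7.83, 7.01 and 6.04 CPM (-0.38, adjusted p = 0.0876) and in DKO 7.56, 6.65 and 6.02 (-0.45, adjusted p = 0.0782), so that all 9 knockout libraries lay below the 3 WT libraries. Prdx5 lies on chromosome 19 from 6906697 to 6910106 (GRCm38) and shares exon bases with Trmt112 on the other strand, whose log2 fold change in Ogg1-/- was -0.42 (adjusted p = 0.191). Without any 1 WT library, or without Ogg1-/- replicate 2 or 3, the adjusted p of Prdx5 was between 0.0582 and 0.149. In NeuN-, Prdx5 was also lower, at -0.21 in Mutyh-/-, -0.21 in Ogg1-/- and -0.25 in DKO (edgeR adjusted p = 0.401, 0.474 and 0.37).

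The other peroxiredoxins of NeuN+ had estimates from -0.45 to 0.11 in Mutyh-/-, from -0.40 to 0.04 in Ogg1-/- and from -0.49 to 0.04 in DKO, with 5 of the 6 lower in each. Prdx2, a cytosolic enzyme abundant in neurons, was at -0.29, -0.40 and -0.40 (adjusted p = 0.172, 0.0929 and 0.115). It shares exon bases with Rnaseh2a and Junb. Prdx1, which lies 106.9 kb from Mutyh on chromosome 4, had 6.78, 5.95 and 6.03 CPM in WT NeuN+, 4.49, 4.14 and 5.01 in Mutyh-/-, 5.36, 5.17 and 4.99 in Ogg1-/- and 5.63, 4.34 and 3.51 in DKO. All knockout libraries were below WT, at -0.45, -0.29 and -0.49 (adjusted p = 0.108, 0.377 and 0.12). In NeuN-, where its level was higher, Prdx1 had 32.8, 31.1 and 26.8 CPM in DKO against 34.9, 34.6 and 34.1 in WT (-0.20, adjusted p = 0.282, and -0.12 without DKO replicate 3), 32.0, 35.2 and 32.7 in Mutyh-/- and 34.5, 34.6 and 33.3 in Ogg1-/-. Prdx4, of the endoplasmic reticulum, was the member of the family that was not below WT in NeuN+ (0.11, 0.04 and 0.04).

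Gpx1, the cytosolic glutathione peroxidase, had the lowest estimate of all 41 genes in NeuN+ DKO. It had 1.37, 1.36 and 1.16 CPM there against 1.75, 2.40 and 1.95 in WT, a log2 fold change of -0.67 ± 0.15 (SE, edgeR adjusted p = 0.0794). In Mutyh-/- it was 1.68, 1.70 and 1.28 CPM (-0.39, adjusted p = 0.194) and in Ogg1-/- 1.69, 1.68 and 1.54 (-0.33, adjusted p = 0.382). Gpx4, which removes lipid peroxides, was at -0.33, -0.36 and -0.39 (adjusted p = 0.148, 0.171 and 0.146). Gpx7, at 8.401 Mb from Mutyh, had 0.512 to 0.852 CPM in DKO and 0.528 to 0.681 in WT, with log2 fold changes of -0.21, -0.08 and 0.13.

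**Figure D3:**
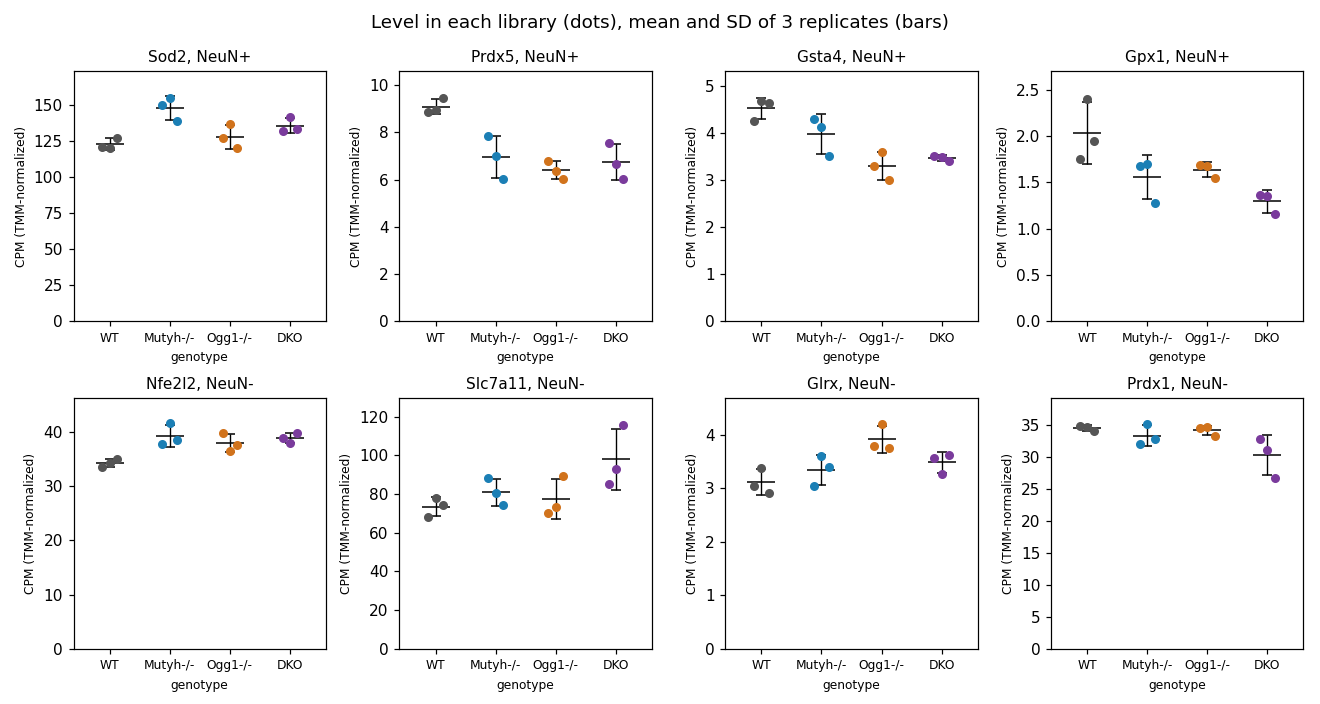
TMM-normalized CPM per library (dots, vertical axis from 0) by genotype (horizontal axis), with mean and SD of 3 replicates, for 4 genes in NeuN+ (top) and 4 in NeuN- nuclei (bottom). Prdx5 lies between 6.02 and 7.83 in the 9 knockout libraries of NeuN+ and between 8.87 and 9.46 in WT, and Nfe2l2 between 36.5 and 41.7 in the knockouts of NeuN- and between 33.6 and 34.9 in WT.

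Of the glutathione transferases, Gsta4, which conjugates the lipid peroxidation product hydroxynonenal, fell in NeuN+ Ogg1-/-. It had 3.30, 3.58 and 3.00 CPM there against 4.25, 4.67 and 4.62 in WT, a log2 fold change of -0.47 ± 0.10 (SE, edgeR adjusted p = 0.0399). DKO had 3.51, 3.49 and 3.39 CPM (-0.40, adjusted p = 0.105), also below every WT library, and Mutyh-/- had 4.29, 4.12 and 3.50 (-0.18, adjusted p = 0.357), which overlapped WT. The adjusted p was between 0.0588 and 0.207 whichever of the 6 libraries was left out. All 4 transferases were below WT in each knockout of NeuN+, with medians of -0.22, -0.40 and -0.38. Gstp1 was at -0.19, -0.37 and -0.39 (adjusted p = 0.323, 0.0864 and 0.0946) in NeuN+ and at -0.13, -0.33 and -0.38 in NeuN-, where its copy Gstp2 was at -0.16, -0.41 and -0.46, none of them called.

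In the thioredoxin system of NeuN+, Srxn1 had the smallest p. It had 7.39, 6.91 and 6.70 CPM in Mutyh-/- against 8.40, 9.19 and 7.94 in WT, without overlap, and a log2 fold change of -0.28 ± 0.08 (SE, edgeR adjusted p = 0.0981). Both other knockouts were at -0.22. The reductases had estimates near 0, Txnrd1 at -0.01, -0.02 and -0.04 and Txnrd2 at 0.04, -0.05 and 0.04. For glutathione synthesis, the regulatory subunit Gclm was at -0.27, -0.26 and -0.29 (adjusted p = 0.103, 0.139 and 0.12), while the catalytic subunit Gclc was at -0.10, -0.04 and -0.04. Gss was above WT at 0.09, 0.16 and 0.16 (adjusted p = 0.3003, 0.129 and 0.15), and its exons overlap those of Acss2 and of Gssos1 and Gssos2. G6pdx was at -0.07, -0.05 and -0.13.

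The classical Nrf2 targets Nqo1 and Hmox1 were not called in any comparison. Nqo1 had 0.473, 0.813 and 0.879 CPM in NeuN+ Mutyh-/- against 1.28, 1.28 and 0.925 in WT, from 27 to 79 counts, with a log2 fold change of -0.67 ± 0.22 (SE, edgeR adjusted p = 0.131). Its values in NeuN- were 0.04, 0.23 and 0.20 with a standard error of 0.23. Hmox1 rested on 18 to 112 counts in every library, with log2 fold changes from -0.47 to 0.22 in NeuN+ and from 0.01 to 0.16 in NeuN- and standard errors from 0.21 to 0.32, so that a moderate change was not detectable at this depth. Keap1 was at -0.13, -0.11 and -0.12 in NeuN+ and at -0.08, -0.11 and -0.07 in NeuN-.

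In NeuN-, Nfe2l2 had the smallest p in both Mutyh-/- and DKO, without being called. It had 33.6, 34.3 and 34.9 CPM in WT, 37.8, 41.7 and 38.5 in Mutyh-/-, 39.9, 36.5 and 37.5 in Ogg1-/- and 38.9, 38.0 and 39.8 in DKO. All 9 knockout libraries lay above the 3 WT libraries, at 0.19, 0.14 and 0.18 on the log2 scale with an SE of 0.05 (edgeR adjusted p = 0.172, 0.293 and 0.215). DESeq2 called it in Mutyh-/- (0.19, adjusted p = 0.0366). In NeuN+, where it rested on 116 to 207 counts, Nfe2l2 was at 0.31, 0.04 and 0.07 with a standard error of 0.17. Of the Nrf2 targets in NeuN-, Gclm was at -0.08, -0.11 and -0.19 and Srxn1 at -0.11, -0.01 and -0.08. G6pdx was at 0.06, -0.10 and -0.08 there, Gclc at 0.04, -0.02 and -0.01 and Txnrd1 at 0.05, 0.01 and -0.03.

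Slc7a11 had 85.4, 93.0 and 115 CPM in NeuN- DKO against 68.1, 78.1 and 74.3 in WT, without overlap, and a log2 fold change of 0.41 ± 0.12 (SE, edgeR adjusted p = 0.23). The DKO libraries were spread widely, and Mutyh-/- with 88.2, 80.6 and 74.3 CPM (0.13) and Ogg1-/- with 70.0, 73.3 and 89.1 (0.07) overlapped WT. Glrx had 3.79, 4.20 and 3.75 CPM in NeuN- Ogg1-/- against 3.05, 3.38 and 2.91 in WT (0.32, standard error 0.10, adjusted p = 0.22), again without overlap. Txnip had 13.4, 12.1 and 12.4 CPM there against 14.4, 15.0 and 14.4 (-0.21, adjusted p = 0.228), and Hmox2 had 66.4, 61.9 and 60.4 against 65.8, 69.1 and 72.4 (-0.14, adjusted p = 0.29). Glrx2 in NeuN- Mutyh-/- had 15.5, 15.8 and 13.6 CPM against 12.7, 13.1 and 13.1 (0.20, adjusted p = 0.282). Summed markers of cell types differed between some of these groups, and fewer cells cannot be told apart from less RNA per cell. Summed astrocyte markers had 977 to 1119 CPM in NeuN- Ogg1-/- and 951 to 1046 in DKO against 839.7 to 934 in WT, 1 of the 6 astrocyte markers was called in Ogg1-/-, summed neuronal markers had 399 to 479.9 and 392 to 473 against 470 to 560, and summed choroid plexus markers ranged from 14.0 to 221 within DKO. Summed oligodendrocyte markers had 5045 to 5667 CPM in Ogg1-/- and 4501 to 5578 in DKO, all below the 5911 to 6645 of WT, with median log2 fold changes of -0.22 over 5 markers in both and no call. Their part in the values of these genes was not tested.

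A single edgeR test of any difference among the 4 genotypes called 0 genes in either fraction. In NeuN+, 1.06% of all genes passed it. There 14 of 41 genes had an unadjusted p under 0.05 (15.4% of all genes), led by Prdx5 (adjusted p = 0.0508 from edgeR) and Sod2 (0.076). In NeuN-, 0.76% of all genes passed, and 9 of 42 genes had an unadjusted p under 0.05 (13.5% of all), led by Hmox2 (adjusted p = 0.211). Without the filter on low counts, 7 genes passed in NeuN+ and 0 in NeuN-. The share of all genes that passed this test without the filter is not given here, so these counts cannot be set against it. For NeuN+ Mutyh-/- against WT, the share of all genes called was 0.641% with the filter and 3.05% without it.

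Whether a knockout's effect differed between the fractions was tested as an interaction over all 24 libraries. With edgeR, 0 of the 42 genes passed for Mutyh-/-, Ogg1-/- or DKO, where 0.0209%, 0.0537% and 0.0567% of all genes passed. Of the 42 genes, 9, 8 and 7 genes had an unadjusted p under 0.05 (8.58%, 7.09% and 9.4% of all). Sod2 came first in Mutyh-/-, at 0.27 in NeuN+ and -0.07 in NeuN-, with an interaction of 0.33 ± 0.08 (SE, edgeR adjusted p = 0.237). Gsta4 came first in Ogg1-/- and DKO. It was at -0.47 and -0.40 in NeuN+ and at 0.13 and 0.10 in NeuN-, with interactions of -0.60 ± 0.12 (SE, edgeR adjusted p = 0.124) and -0.49 (adjusted p = 0.192). The values of Sod2 and Gsta4 are therefore not shown to differ between NeuN+ and NeuN-.

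The estimates in NeuN+ were lowest in genes of short span. This division was chosen after the values were seen. Of the 41 genes tested, 15 span under 10 kb in the GENCODE vM21 annotation, among them Sod1, Gpx1, Gpx4, Prdx2, Prdx5, Srxn1 and the transferases Gstm1, Gstm5 and Gstp1. In each knockout 13 of these 15 genes were below WT, and the medians were -0.25, -0.34 and -0.28 on the log2 scale for Mutyh-/-, Ogg1-/- and DKO. Protein-coding genes of the same span had medians of -0.04, -0.06 and -0.04, and 57.9%, 60.2% and 58.3% of them were below WT (3990 genes). Of the 15 genes that span 10 to 30 kb, 11, 10 and 11 were below WT, with medians of -0.15, -0.04 and -0.11, beside -0.02, -0.01 and -0.01 and 54.3%, 52.9% and 52.7% of 5303 protein-coding genes. The 9 genes that span 30 to 100 kb, such as Sod2, Txnrd1 and Gclc, had medians of -0.01, -0.04 and -0.02, beside -0.01, 0.01 and 1.23e-05 in 4852 protein-coding genes. Of these 9 genes, 5, 7 and 6 were below WT, beside 52.1%, 47.7% and 50% of the protein-coding genes. Only 2 genes span over 100 kb, with medians of -0.01, -0.07 and -0.09, beside 0.01, 0.02 and 0.02 in 2460 protein-coding genes. Across the 41 genes, which are not independent replicates and share their libraries, the Spearman correlation of span and log2 fold change was 0.52, 0.48 and 0.57, and across all protein-coding genes it was 0.07, 0.17 and 0.09. In NeuN- it was 0.35, 0.05 and 0.16 over 42 genes, and 0.08, 0.10 and 0.15 over all protein-coding genes. The genes with the TGACNNNGC core had medians of -0.22, -0.22 and -0.22 in NeuN+ (9 genes) and those with a window without it -0.13, -0.08 and -0.11 (25 genes). In NeuN- the medians were -0.06, -0.01 and -0.07 with the core (9 genes) and -0.06, -0.04 and -0.04 without it (26 genes). This difference by core was not tested. Sod1, Srxn1 and Gstm5 have the core and also span under 10 kb, and the Nrf2 target Nqo1 is among the genes without it.

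**Figure D4:**
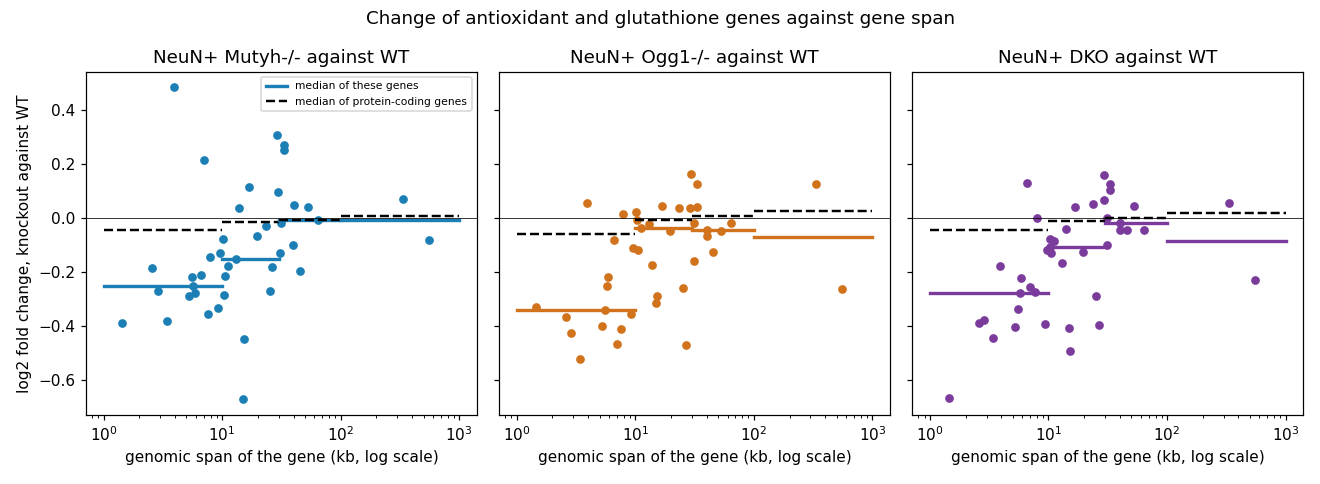
Log2 fold change in NeuN+ (vertical axis) against genomic span in kb (horizontal axis, log scale) for the 41 tested genes (dots), in Mutyh-/-, Ogg1-/- and DKO. Solid lines are medians of these genes and dashed lines medians of all tested protein-coding genes in 4 ranges of span. Under 10 kb the solid lines lie at -0.25, -0.34 and -0.28 and the dashed lines at -0.04, -0.06 and -0.04.

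A wider list of 67 further genes of these pathways, 60 of them tested in NeuN+ and 63 in NeuN-, had no call in any of the 6 comparisons with edgeR, while DESeq2 called 1, 4 and 3 of them in NeuN+ and 2, 3 and 2 in NeuN-. DESeq2 called 3.85%, 2.47% and 2.11% of all genes in NeuN+ and 1.9%, 1.84% and 1.42% in NeuN-. In NeuN+, 10, 7 and 8 of the list were lower at an unadjusted p under 0.05 (9.21%, 7.33% and 7.51% of all genes) and 6, 1 and 3 higher (9.48%, 5.01% and 5.98% of all). The list's smallest p in NeuN+ Ogg1-/- and DKO belonged to Fth1, the ferritin heavy chain that stores iron, which had log2 fold changes of -0.58 and -0.57 with an SE of 0.14 (edgeR adjusted p = 0.06 and 0.0879). In NeuN-, 9, 11 and 10 were lower (6.9%, 6.08% and 6.31% of all genes) and 3, 7 and 2 higher (6.78%, 5.75% and 6.06% of all). Selenow, a selenoprotein, was at -0.31 in NeuN- Ogg1-/- (adjusted p = 0.0795) and Sqstm1, an adaptor that binds Keap1, at -0.25 in DKO (adjusted p = 0.109). Nnt, the mitochondrial transhydrogenase that makes NADPH, was at -0.06, -0.08 and -0.06 in NeuN+ and at -0.14, -0.21 and -0.11 in NeuN- (adjusted p = 0.278, 0.141 and 0.421).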

How the data were processed

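The authors aligned read pairs of nuclear RNA to GRCm38 and deposited raw counts per gene, 1 column per library, which are the values used here. The submitters' processing notes name FastQC 0.11.9, HISAT2 2.1.0, SAMtools 1.10, featureCounts, R 4.3.2 and edgeR 3.42.4, and the study counted against Ensembl genes. Strand, overlap and multiple-alignment settings of the counting are not given in the sources used here, so genes that overlap others are uncertain. Pooling of 3 animals per genotype is stated for this RNA.

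From these counts, edgeR 4.0.16 (R 4.3.3, limma 3.58.1) was run with filterByExpr, TMM factors and the quasi-likelihood test over the 12 libraries of a fraction, with Benjamini-Hochberg adjustment over all genes tested (30132 in NeuN+, 31863 in NeuN-). Fractions and interactions were tested over all 24 libraries (33523 genes). The biological coefficient of variation was 0.0823, 0.124 and 0.105 in these fits. No 2 libraries of a group were alike in counts. Scripts were tested on simulated counts. Alternatives used DESeq2 1.42.0, other filters and size factors, a replicate block, 2 genotypes only and fits without 1 library.

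Values are given for Ogg1 and Mutyh, every gene called, the 3 genes with the smallest p per knockout comparison, the 5 largest differences between fractions in each direction, Nfe2l2, Keap1 and 8 Nrf2 targets, genes within 10 Mb of a targeted gene, and Nnt. For some of these genes, knockout values are given for a single fraction only. Other genes were named after their values were seen. The genes and lists were chosen with earlier results of these data known. Positions are from GENCODE vM21 and promoter windows from RefSeq. Depth limits the genes with few counts.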

Additional observations from a re-analysis of the deposited data

How the results depend on the processing

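The numbers of the 42 genes called moved with the processing, and where no cause is named it was not tested. In NeuN+ Mutyh-/-, where 1 gene was called, the count was 3 without a filter on low counts, 0 with the replicate block, 0 with the added condition on fold change, 3 at an adjusted p under 0.1, 0 in a fit of only the 2 genotypes, 4 with DESeq2 and 0 to 1 with 1 library left out. In Ogg1-/-, where 2 were called, it was 5, 4, 1, 5, 6, 5 and 0 to 1 in the same order. In DKO, where 0 were called, it was 6 without the filter, 3 with the replicate block, 4 at an adjusted p under 0.1, 9 with DESeq2 and 0 to 2 with 1 library left out. The 2 calls came without DKO replicate 1 and were Prdx1 and Prdx5. For any difference among genotypes in NeuN+, the count was 0, 7 without the filter and 2 with the replicate block. In NeuN-, DESeq2 called 1 gene in Mutyh-/- (Nfe2l2) and 1 in DKO (Slc7a11), and the fit of only the 2 genotypes called 1 in Ogg1-/- (Gstp1), in place of 0. A fit without 1 library has fewer samples. The share of all genes called is not given here for the replicate block, the adjusted p under 0.1, the fits of only 2 genotypes or those without 1 library. It is also not given for the alternatives of the test of any difference among genotypes. The counts at these settings therefore cannot be read as a result about these genes.

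With 1 library left out, the median log2 fold change ranged from -0.160 to -0.116 in NeuN+ Mutyh-/-, from -0.0246 to -0.00460 in NeuN- Ogg1-/- and from -0.0644 to -0.0142 in NeuN- DKO. Of 215 alternatives for 18 single values, 180 left the call as it was, 18 lost it, 17 gained it and 0 turned the direction. All losses fell on the called values: 7 of 12 alternatives for Sod2 in NeuN+ Mutyh-/-, and 5 of 12 for Prdx5 and 6 of 12 for Gsta4 in NeuN+ Ogg1-/-. The other values were not called, so those left as they were stayed uncalled. Sod2 in NeuN+ Mutyh-/- had an adjusted p of 0.0583 with the replicate block and 0.0541 in the fit of only the 2 genotypes. Replicate numbers did not reach a correlation over 0.1 in every pair and were not treated as pairs. Same-numbered libraries of the 2 fractions of a genotype did tend to deviate together from their group means, with a mean correlation of 0.213 and 9 of 12 pairs over 0.1, against -0.102 and 4 of 24 pairs for other numbers. The fits over all 24 libraries do not model this. With the replicate block they called the same numbers, 4 and 14 between WT fractions and 0 interactions. Correlations of same-numbered genotypes within a fraction averaged 0.0103 in NeuN+ and 0.0724 in NeuN-. Between WT fractions, 4 genes were called on the NeuN+ side and 13 to 14 on the NeuN- side with the same-numbered WT library of both fractions left out. DESeq2 gave no adjusted p for Gpx1 in NeuN+ DKO. Genomic span and shared exon bases were looked at after seeing the data. Depth limits Gpx8, Txnip, Sod3, Gpx7 and Hmox1 in NeuN+, with few counts per library.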
